A study of Rattus norvegicus with 6 samples.

Results

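The miR-23a/27a/24-2 and miR-23b/27b/24-1 clusters are a pair of related miRNA loci, each made of 3 neighbouring hairpins. This account covers 7 of their mature arms, taken by name from a table of read counts on 763 mature rat miRNAs: rno-miR-23a-3p, rno-miR-23b-3p, rno-miR-27a-3p, rno-miR-27b-3p, rno-miR-24-3p, rno-miR-24-1-5p and rno-miR-24-2-5p. All 7 were found, and all 7 passed the filter on low counts that left 404 miRNAs for testing. The counts came from exosomes, small membrane vesicles, pelleted from the plasma of male Sprague-Dawley rats aged 7 to 8 weeks per the methods. RIPC-EXO was made from rats that had remote ischemic pre-conditioning, in which bands around both hind limbs gave 4 cycles of 5 min of ischemia and 5 min of reperfusion under anesthesia, and Control-EXO from rats without it. Blood was taken 48 h later in both groups, and each group had 3 small RNA libraries. No allele separated the groups. The methods do not say whether the control rats were also anesthetized when the bands were applied. The libraries were grouped by their titles and by a protocol label, while the treatment label reads untreated in both groups. The labels do not say whether a library held the plasma of 1 rat or of several, so the p-values below measure the spread between these libraries.

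A miRNA hairpin is cut into a 5p and a 3p arm, and 1 arm usually becomes the guide that a silencing complex uses to find target transcripts through its seed, bases 2 to 8. In these clusters the 3p arms are the guides. miR-24-3p is made from both loci, whereas the 5p arms of the miR-24 hairpins differ and so mark the locus of origin. The clusters are well known in endothelium and in heart: miR-23 and miR-27 guides promote vessel sprouting by repressing inhibitors of angiogenic signalling such as Sprouty2, miR-27 also restrains adipocyte formation, miR-23 represses mitochondrial glutaminase, and miR-24 represses the pro-apoptotic protein Bim in cardiomyocytes.

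The mature sequences are shown because the comparison of a and b paralogs rests on a few letters of them. They are RefSeq sequences of the GRCr8 assembly, 5′ to 3′, matched by miRNA name for all 7 members, with the seed in capitals.
miR-23a-3p: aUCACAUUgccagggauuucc
miR-23b-3p: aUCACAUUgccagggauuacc
miR-27a-3p: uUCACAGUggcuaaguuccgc
miR-27b-3p: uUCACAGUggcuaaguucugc
miR-24-3p: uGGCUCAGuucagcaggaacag
miR-24-2-5p: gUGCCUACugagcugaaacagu
miR-24-1-5p: gUGCCUACugagcugauaucag

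The guides of each paralog pair shared their seed and all but 1 of 21 bases. Counting from 1 at the 5′ end, with the base of the a paralog first, miR-23a-3p and miR-23b-3p differed by U19A and miR-27a-3p and miR-27b-3p by C19U. A read cut short before that base, or counted with 1 mismatch, cannot be given to a single paralog, and the mismatch rule is not given in the sources used here, so the a and b values of these guides are uncertain to that extent. The 5p arms of miR-24-2 and miR-24-1 shared their seed and their first 16 bases and differed at 5 bases, A17U, C19U, A20C, G21A and U22G. No other miRNA of the table with a RefSeq sequence shared the seed of any member, among 686 names that matched.

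In GRCr8 the a cluster lies on the minus strand at chr19:40859455-40859843, a span of 389 bases that overlaps no other gene in the RefSeq gene table. The b cluster lies on the minus strand at chr17:1818669-1819482, a span of 814 bases within the spans of Aopep and Fancc. The count table carries no coordinates, and the submitters list the older build rn6. The hairpins of miR-24 show how 1 shared guide sits beside 5p arms that differ, with the mature arms in capitals.
Mir24-2: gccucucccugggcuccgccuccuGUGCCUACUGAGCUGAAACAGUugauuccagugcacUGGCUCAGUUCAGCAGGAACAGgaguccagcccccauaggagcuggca
Mir24-1: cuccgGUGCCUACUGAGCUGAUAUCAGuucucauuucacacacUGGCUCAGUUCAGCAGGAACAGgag

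Reads counted on miRNAs numbered 5484209 to 7531737 per library. Levels are given as TMM-normalized CPM, a read count scaled to a fixed library total and for composition, and 3 counts corresponded to 0.369 to 0.672 CPM on that scale. Control-EXO 3 stood apart from its group: over the 404 tested miRNAs its Spearman correlation was 0.902 and 0.931 with the other Control-EXO libraries and 0.965 to 0.983 with the RIPC-EXO libraries. No label sets it apart. miRNAs typical of red cells, of leukocytes and platelets, of striated muscle and of liver were present in every library. In a plasma pellet, fewer vesicles of one source and less miRNA per vesicle cannot be told apart.

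The 7 arms held between 9.29% and 13.2% of all counted reads, and most of these were miR-24-3p, which made up 65.9% to 85.4% of the members' reads. Ordered by mean CPM, miR-24-3p was followed by miR-27a-3p, miR-24-2-5p, miR-27b-3p, miR-23a-3p, miR-23b-3p and miR-24-1-5p. The arms are 21 or 22 bases long, so the levels are close to levels per length, though ligation efficiency between different sequences was not measured. Of the 6 neighbouring pairs in that order, 3 kept the order in 6 of 6 libraries: miR-24-3p over miR-27a-3p, at 10.3 times on average, miR-23a-3p over miR-23b-3p, at 6.09 times, and miR-23b-3p over miR-24-1-5p, at 4.43 times. The order was set on the means of the same libraries, so these counts are a description. The other 3 neighbouring pairs, miR-27a-3p and miR-24-2-5p, miR-24-2-5p and miR-27b-3p, and miR-27b-3p and miR-23a-3p, kept the order in 3, 4 and 4 of 6 libraries and did not differ beyond their spread.

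**Figure D1:**
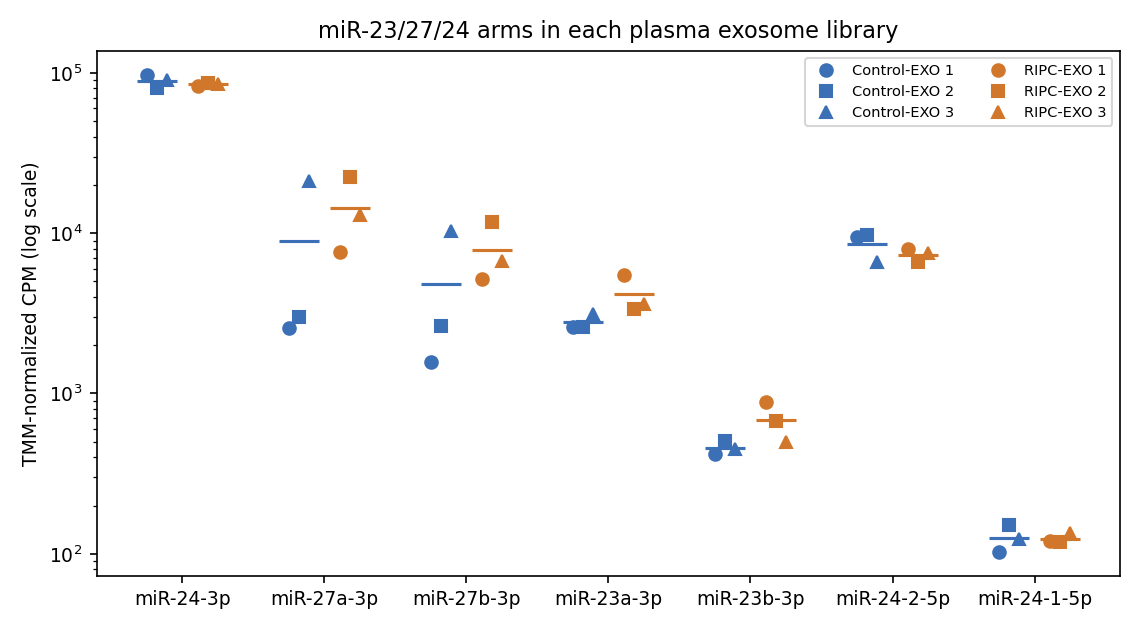
TMM-normalized CPM (log scale) of the 7 arms in each of 3 Control-EXO libraries (blue) and 3 RIPC-EXO libraries (orange), with a bar at each group mean. miR-24-3p sits between 80623 and 97558 CPM in every library, while miR-27a-3p runs from 2578 to 22506 CPM.

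Averaged over the 6 libraries, miR-24-3p had the highest level of all 404 tested miRNAs. By counts it ranked 4, 3 and 2 in the Control-EXO libraries and 1, 2 and 2 in the RIPC-EXO libraries, and the Control-EXO mean of miR-486 (116723 CPM) was above its own. Its CPM was 97558, 80623 and 90341 in Control-EXO replicates 1, 2 and 3 and 82834, 86921 and 84701 in RIPC-EXO replicates 1, 2 and 3. The groups overlapped, and the RIPC-EXO values lay inside the range of Control-EXO. The means were 89507 ± 8498 and 84819 ± 2046 CPM (SD, n = 3 each), and the log2 fold change of RIPC-EXO over Control-EXO was -0.08 (95% interval -0.83 to 0.67, quasi-likelihood adjusted p = 0.91 in edgeR). Between its highest and lowest library miR-24-3p differed 1.21-fold, the smallest such span of all 404 tested miRNAs, whose median span was 4.03-fold. It kept that rank with plain library-size scaling, at 1.21-fold. As a share of reads it ran from 7.94% (exact 95% binomial interval 7.91% to 7.96%) in Control-EXO 1 to 9.57% (9.55% to 9.60%) in RIPC-EXO 1.

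The 5p arms of miR-24 were also among the steadier miRNAs. miR-24-2-5p, from the a cluster, had 9414, 9744 and 6610 CPM in Control-EXO and 7941, 6619 and 7477 CPM in RIPC-EXO, a log2 fold change of -0.23 (95% interval -1.10 to 0.65). miR-24-1-5p, from the b cluster, had 103, 152 and 123 CPM in Control-EXO and 121, 119 and 134 CPM in RIPC-EXO, a log2 fold change of -0.02 (95% interval -0.91 to 0.87). The groups overlapped for both. Their spans of 1.47-fold and 1.48-fold ranked 9 and 10 from the steadiest among the 404. With plain library-size scaling the spans were 1.76-fold and 2.02-fold and ranked 16 and 42. Opposite the miR-24-1 hairpin lies miR-3074, a miRNA of the other strand chosen after its values were seen, and 20 bases of miR-24-1-5p are its reverse complement. miR-3074 had 0, 3 and 2 counts in Control-EXO and 4, 12 and 8 counts in RIPC-EXO, where the 0 counts of Control-EXO 1 allow up to 0.672 CPM.

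Among the members, miR-23a-3p alone separated the groups without overlap. miR-23a-3p had 2599, 2616 and 3118 CPM in Control-EXO and 5487, 3389 and 3637 CPM in RIPC-EXO. Every RIPC-EXO library was above every Control-EXO library, with RIPC-EXO 1 the highest, as held for 12.9% of all tested miRNAs in either direction. The means were 2778 ± 295 and 4171 ± 1146 CPM (SD, n = 3 each), which edgeR fitted as 0.59 on the log2 scale (95% interval -0.34 to 1.51, SE 0.41, quasi-likelihood adjusted p = 0.51). The exact two-sided permutation p was 0.1, the smallest that 3 against 3 allow. Leaving out each library in turn moved the log2 fold change of miR-23a-3p between 0.40 and 0.71.

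miR-23b-3p followed its paralog at a lower level. It had 419, 503 and 451 CPM in Control-EXO and 891, 671 and 497 CPM in RIPC-EXO. The groups overlapped by a narrow margin, since RIPC-EXO 3 was just below Control-EXO 2. The means were 458 ± 42.2 and 686 ± 197 CPM (SD, n = 3 each), which edgeR fitted as 0.58 on the log2 scale (95% interval -0.36 to 1.53, SE 0.42, quasi-likelihood adjusted p = 0.51).

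The miR-27 guides varied most. miR-27a-3p had 2578, 3020 and 21034 CPM in Control-EXO and 7602, 22506 and 13069 CPM in RIPC-EXO. miR-27b-3p had 1577, 2633 and 10280 CPM in Control-EXO and 5159, 11687 and 6690 CPM in RIPC-EXO. Both were low in Control-EXO 1 and 2 and high in Control-EXO 3 and RIPC-EXO 2, so the groups overlapped through a single control library. Their spans over the 6 libraries, 8.73-fold and 7.41-fold, ranked 344 and 331 from the steadiest of 404.

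The log2 fold change was 0.70 for miR-27a-3p (95% interval -1.11 to 2.50) and 0.70 for miR-27b-3p (95% interval -0.86 to 2.26), and edgeR gave adjusted p of 0.67 and 0.61. With all 6 libraries kept, limma-voom gave 1.26 and 1.08 and the replicate block 1.30 and 1.13, with adjusted p of 0.51 and 0.54 in each pair. Without Control-EXO 3 the values became 2.37 and 1.91, with adjusted p of 0.0058 and 0.0095 in edgeR, in a fit in which 132 of 422 tested miRNAs (31.3%) had an adjusted p under 0.05. Without Control-EXO 3 the log2 fold changes of miR-23a-3p, miR-23b-3p and miR-24-3p were 0.69, 0.58 and -0.06. Leaving out Control-EXO 1 instead lowered those of miR-27a-3p and miR-27b-3p to their lowest values, 0.27 and 0.28.

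One blood cell miRNA, miR-142-5p, was low and high in the same libraries as miR-27, and it dominated the marker list of leukocytes and platelets. The sum of its 4 miRNAs, all detected in every library, was 5001, 3553 and 21387 CPM in Control-EXO and 11779, 26861 and 11449 CPM in RIPC-EXO. miR-142-5p had 18751 CPM in Control-EXO 3 and 24670 CPM in RIPC-EXO 2 against 2444 and 2321 CPM in Control-EXO 1 and 2. The rest of the list did not show that pattern. miR-142-3p, from the same hairpin, had 550, 301 and 359 CPM in Control-EXO and 965, 533 and 868 CPM in RIPC-EXO, and miR-223-3p was between 334 and 793 CPM throughout. The part of blood cell RNA in the miR-27 values was not tested.

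**Figure D2:**
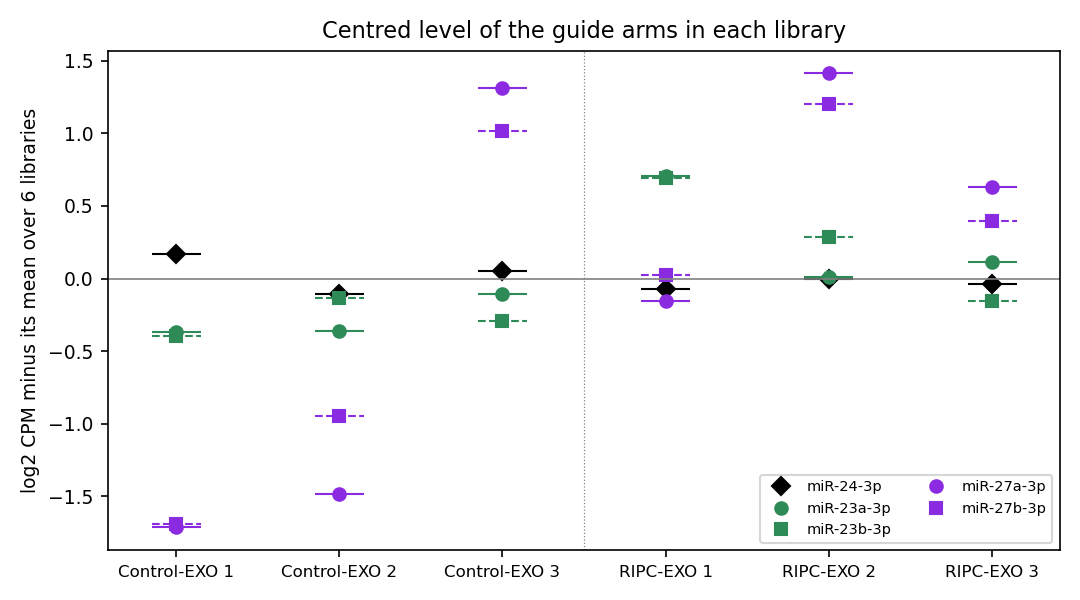
log2 CPM of the 5 guide arms minus each arm's mean over the 6 libraries, by library. The miR-27 guides run from -1.71 in Control-EXO 1 to 1.41 in RIPC-EXO 2 and are high in Control-EXO 3, the miR-23 guides peak in RIPC-EXO 1 at 0.71 and 0.69, and miR-24-3p stays between -0.11 and 0.17.

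Set against the whole table, none of the 7 members met the criterion that the study states for its calls. That criterion is a change of more than 2-fold, higher or lower, at p under 0.05, taken here as unadjusted. Of the tested miRNAs 9.41% met it (38 of 404, 8 higher and 30 lower in RIPC-EXO). That split moved with the scaling, to 12 higher and 25 lower with RLE size factors and to 18 higher and 15 lower with library size only. In edgeR no member reached an adjusted p under 0.05, nor did any of the 404 (0%), with 38 at an unadjusted p under 0.05. DESeq2 and limma-voom also gave 0 miRNAs at an adjusted p under 0.05. The groups did not overlap for 1 of 7 members, near the 12.9% of all tested miRNAs (52 of 404) for which they did not. The 4 miR-23 and miR-27 guides were higher and the 3 miR-24 arms lower in RIPC-EXO, with a median log2 fold change of 0.58 over the members and -0.05 over all tested miRNAs, of which 197 of 404 were higher. With library size only, the median of all tested miRNAs was 0.10, and miR-24-3p and miR-24-1-5p turned to the higher side, at 0.09 and 0.10. The 95% intervals of the 7 members each included 0, and those of the miR-27 guides were wide enough to hold more than a 4-fold difference.

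**Figure D3:**
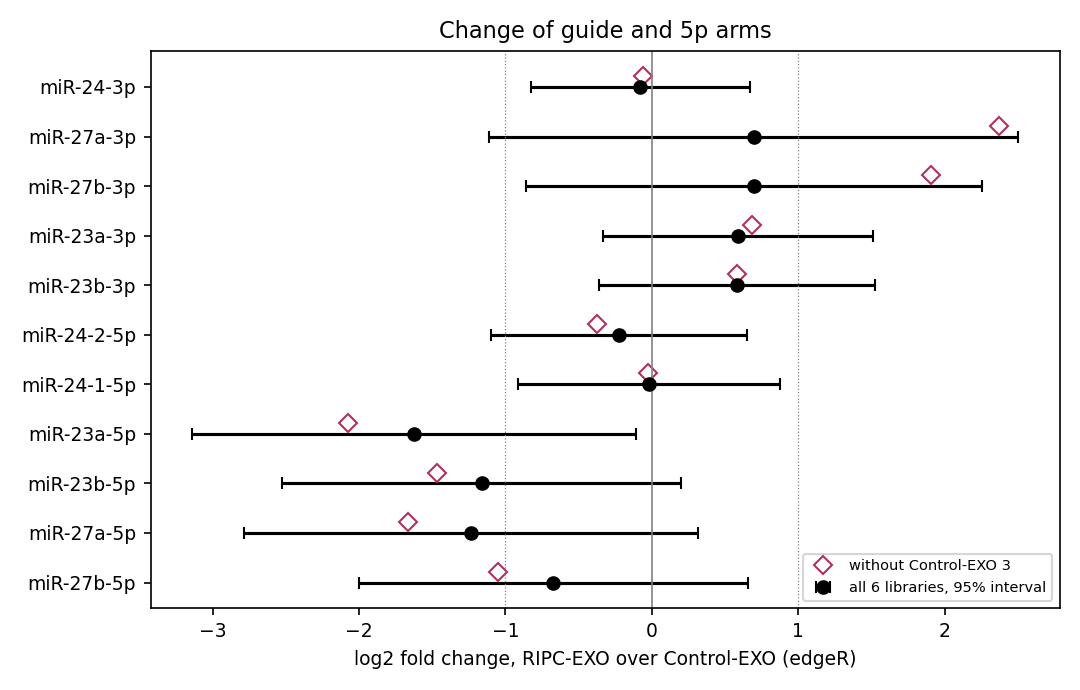
log2 fold change of RIPC-EXO over Control-EXO from edgeR for the 7 members and the 5p arms of miR-23 and miR-27, with 95% intervals from all 6 libraries (black) and the value without Control-EXO 3 (open diamonds), and dotted lines at 2-fold. The members' intervals cross 0, the miR-27 guides move furthest without Control-EXO 3, to 2.37 and 1.91, and the 5p arms lie on the lower side. Without Control-EXO 1, which is not drawn, the miR-27 guides were at 0.27 and 0.28.

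The a and b paralogs were compared as ratios of counts within a library, which need no scaling. The a paralog was the more abundant in 6 of 6 libraries for each of the 3 pairs, by amounts that did not overlap between pairs. miR-24-2-5p exceeded miR-24-1-5p by 91.4, 64.0 and 53.5 times in Control-EXO and by 65.8, 55.8 and 55.6 times in RIPC-EXO. These arms differed at 5 bases near the 3′ end, so this pair is the least exposed to reads that match both. miR-23a-3p exceeded miR-23b-3p by 6.20, 5.21 and 6.91 times in Control-EXO and by 6.16, 5.05 and 7.32 times in RIPC-EXO. For miR-27a-3p over miR-27b-3p the ratios were 1.63, 1.15 and 2.05 in Control-EXO and 1.47, 1.93 and 1.95 in RIPC-EXO.

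None of the 3 paralog ratios differed between groups beyond the spread of the libraries. The difference of the mean log2 ratio, RIPC-EXO minus Control-EXO, was 0.01 for miR-23, 0.18 for miR-27 and -0.21 for the 5p arms of miR-24, with exact two-sided permutation p of 1.0, 0.7 and 0.7. The sum of the a guides over the sum of the b guides was 2.59, 1.80 and 2.25 in Control-EXO and 2.16, 2.10 and 2.32 in RIPC-EXO. While miR-27a-3p spanned 8.73-fold over the libraries, its ratio to miR-27b-3p spanned 1.78-fold. The guides of the miR-23 and miR-27 pairs differ at 1 base. How far reads matching both paralogs set these ratios or their steadiness was not tested. In every library the a paralog was ahead, for which the exact two-sided sign-flip permutation p was 0.031 for each pair, the smallest that 6 libraries give. Adjustment over all 13 ratios, most of them at that minimum, gave 0.034, whereas adjustment of miR-23a-3p over miR-23b-3p among the 6 neighbouring pairs in order of level gave 0.062, so these values lie on both sides of 0.05.

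Partners within a cluster did not keep step in the same way. miR-23a-3p over miR-27a-3p was 1.01, 0.866 and 0.148 in Control-EXO and 0.722, 0.151 and 0.278 in RIPC-EXO. miR-23b-3p over miR-27b-3p was 0.266, 0.191 and 0.0439 in Control-EXO and 0.173, 0.0574 and 0.0742 in RIPC-EXO. In both clusters the ratio was lowest in Control-EXO 3 and RIPC-EXO 2, the libraries with the most miR-27, and the groups overlapped (exact permutation p = 0.6 and 0.7). The mean log2 differences, RIPC-EXO minus Control-EXO, were -0.70 and -0.53, and depended on single libraries: they were -1.58 and -1.32 without Control-EXO 3, and -0.20 and -0.02 without Control-EXO 1. These ratios spanned 6.80-fold and 6.05-fold over the libraries, against 1.45-fold for miR-23a-3p over miR-23b-3p and 1.78-fold for miR-27a-3p over miR-27b-3p. The part of reads matching both paralogs in this contrast was not tested.

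miR-24-3p exceeded the summed miR-23 guides by 32.3, 25.8 and 25.3 times in Control-EXO and by 13.0, 21.4 and 20.5 times in RIPC-EXO. Each RIPC-EXO library was below each Control-EXO library, a difference of -0.63 in mean log2 ratio (exact permutation p = 0.1, adjusted p = 0.65 over the 13 ratios tested), and of -0.40 without RIPC-EXO 1. miR-24-3p exceeded the summed miR-27 guides by 23.5, 14.3 and 2.88 times in Control-EXO and by 6.49, 2.54 and 4.29 times in RIPC-EXO, which overlapped (exact permutation p = 0.3). That difference was -1.26 in mean log2 ratio, -2.15 without Control-EXO 3 and -0.63 without Control-EXO 1. miR-24-3p exceeded its own summed 5p arms by 8.15 to 13.4 times, with no separation of the groups (exact permutation p = 0.6).

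**Figure D4:**
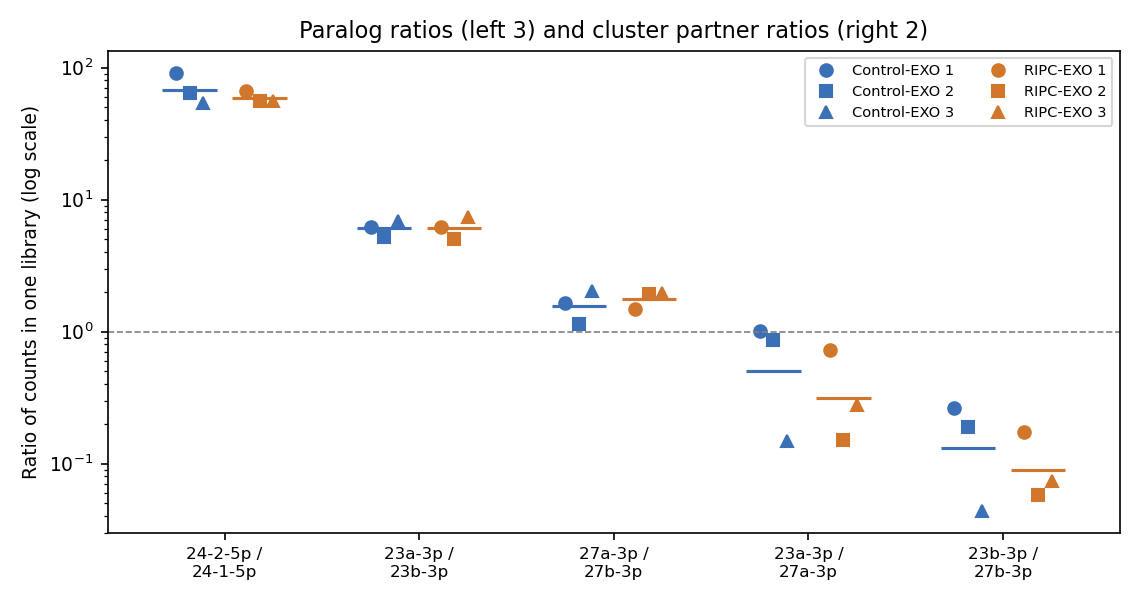
Ratio of counts within each library (log scale) for 3 paralog pairs and 2 pairs of cluster partners, with a bar at the geometric mean of each group and a dashed line at 1. Paralog ratios sit in tight, separate bands near 63.2, 6.09 and 1.66, while miR-23 over miR-27 ratios spread 6.80-fold and 6.05-fold.

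The 5p arms of the miR-23 and miR-27 hairpins, usually discarded as passengers, were also counted. All 4 had a negative log2 fold change, as had 51.2% of all tested miRNAs, and the 4 guides from the same hairpins a positive one, but only miR-23a-5p met the criterion of the study, on the lower side as 7.43% of all tested miRNAs did. miR-23a-5p had 98.2, 47.1 and 12.9 CPM in Control-EXO and 22.3, 14.5 and 14.4 CPM in RIPC-EXO. Control-EXO 3 was below every RIPC-EXO library. In edgeR its log2 fold change was -1.62 (SE 0.68, adjusted p = 0.46), and at an unadjusted p of 0.038 it met the criterion of the study. It no longer met it with library size only (-1.39), limma-voom (-1.22) or a replicate block (-1.26). Leaving out each library in turn moved it from -2.08 without Control-EXO 3 to -0.94 without Control-EXO 1. miR-23a-5p met the criterion in 1 of these 6 fits, that without Control-EXO 3, where 43.1% of all tested miRNAs met it.

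miR-27a-5p had 894, 272 and 125 CPM in Control-EXO and 237, 119 and 192 CPM in RIPC-EXO, with Control-EXO 1 far above the rest and the groups overlapping. Its log2 fold change in edgeR was -1.23 (unadjusted p = 0.11), which became -0.21 when Control-EXO 1 was left out and -1.66 (adjusted p = 0.025) when Control-EXO 3 was, in the fit in which 31.3% of the tested miRNAs reached an adjusted p under 0.05. miR-23b-5p and miR-27b-5p were rare, at 2.46 to 11.4 CPM and 4.41 to 17.5 CPM, with log2 fold changes of -1.16 and -0.67. Without Control-EXO 1 these became -0.85 and -0.37, and neither met the criterion of the study. Without Control-EXO 3 they became -1.47 and -1.05 and both met the criterion (unadjusted p of 0.021 and 0.047 in edgeR, adjusted 0.062 and 0.10), as did 43.1% of all miRNAs tested in that fit (182 of 422). miR-23b-5p also met it among miRNAs with at least 10 counts in each library (-1.20, unadjusted p of 0.044 in edgeR), of which 11.6% met it.

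Per hairpin, the 5p arm over the 3p arm was highest in Control-EXO 1 and next highest in Control-EXO 2 for all 4 hairpins. For miR-27a it was 0.347, 0.0901 and 0.00593 in Control-EXO and 0.0311, 0.00530 and 0.0147 in RIPC-EXO, a 65.4-fold span. For miR-23b the ratio was 0.0275, 0.0149 and 0.00867 in Control-EXO and 0.00283, 0.00695 and 0.00624 in RIPC-EXO, so that every RIPC-EXO library was below every Control-EXO library (exact permutation p = 0.1, adjusted p = 0.65). For miR-23a the 3 RIPC-EXO values lay between 0.00397 and 0.00430, with Control-EXO at 0.0378, 0.0180 and 0.00417. The mean log2 differences were -1.78, -1.62, -2.08 and -1.57 for miR-23a, miR-23b, miR-27a and miR-27b, and the exact permutation p was 0.2, 0.1, 0.3 and 0.4. Without Control-EXO 3 they were -2.67, -2.03, -3.72 and -2.93, and without Control-EXO 1 -1.08, -1.19, -0.78 and -0.59.

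The red cell list also stood highest in Control-EXO 1 and 2. Its 4 miRNAs summed to 198092, 92404 and 69280 CPM in Control-EXO and to 44540, 74966 and 60174 CPM in RIPC-EXO, almost all of it miR-486 (log2 fold change -1.07). The other members of that list had positive values, with miR-451-5p at 0.37 and with miR-144-3p at 1.07 and miR-144-5p at 1.63, which both met the criterion of the study on the higher side, where 1.98% of all tested miRNAs met it. Their adjusted p in edgeR was 0.46 each. The part of red cell RNA in the 5p arms was not tested.

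**Figure D5:**
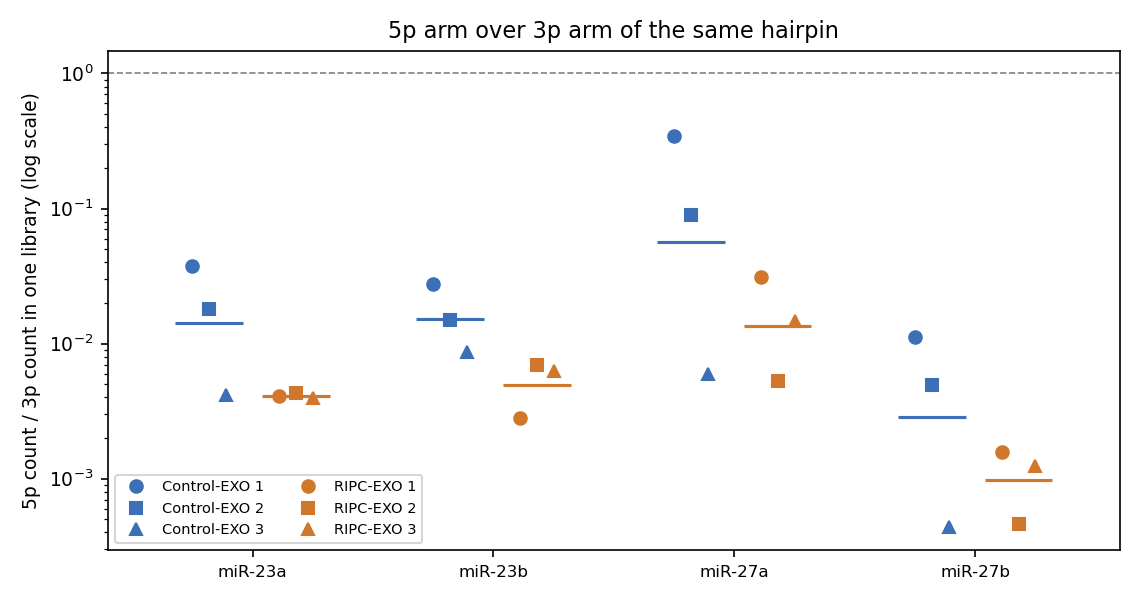
Count of the 5p arm over count of the 3p arm of the same hairpin in each library (log scale), with a bar at the geometric mean of each group. Control-EXO 1 and 2 are the highest for each hairpin, Control-EXO 3 lies among the RIPC-EXO libraries for miR-23a, miR-27a and just below them for miR-27b, and the miR-27a values run from 0.00530 to 0.347.

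Likeness between miRNAs was measured as the root mean square distance of log2 CPM over the 6 libraries, each miRNA centred on its own mean, and ranked among 403 others. The miR-23 guides were close to each other, at 0.20, rank 3 seen from miR-23a-3p and rank 1 seen from miR-23b-3p. The miR-27 guides were at 0.29, rank 5 seen from miR-27a-3p and rank 7 from miR-27b-3p. The part of reads matching both paralogs in these distances was not tested. By contrast miR-23a-3p and miR-27a-3p, which share a locus, were 1.16 apart, rank 353 seen from miR-23a-3p, whose median distance to all others was 0.79. miR-23b-3p and miR-27b-3p were 0.97 apart, rank 280 seen from miR-23b-3p, with a median of 0.80. Seen from the miR-27 guides, whose median distances to all others were 1.33 and 1.17, the same partners ranked 167 and 159, nearer than the typical miRNA. miR-24-3p was nearer to its 5p arms, at 0.24 and 0.25, than to any other member.

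Outside the members, the nearest profiles to miR-23a-3p were miR-19a-3p and miR-10b-3p, at 0.16 and 0.19, and to miR-23b-3p miR-103-3p and miR-17-2-3p, at 0.20 each. The nearest to miR-27a-3p were miR-340-3p and miR-142-5p, at 0.24 and 0.26, and to miR-27b-3p miR-29c-3p and miR-29b-3p, at 0.11 and 0.15. Those nearest to miR-24-3p were miR-222-3p and miR-3586-3p, at 0.11 each, though miR-3586-3p was rare, at 2.83 to 3.56 CPM. miR-29c-3p, for example, had 35.4, 66.6 and 220.2 CPM in Control-EXO and 102, 256 and 136 CPM in RIPC-EXO, low in Control-EXO 1 and 2 and high in Control-EXO 3 and RIPC-EXO 2, as miR-27b-3p was.

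miR-128-3p, whose seed is that of miR-27 shifted by 1 base so that 8 bases are common to both, had 38334, 11748 and 45934 CPM in Control-EXO and 12174, 28380 and 16760 CPM in RIPC-EXO, which edgeR fitted as -0.74 on the log2 scale (unadjusted p = 0.22). It was high in Control-EXO 3, as miR-27 was, but also in Control-EXO 1, where miR-27 was low. Of 14 vascular miRNAs taken as company for these clusters, 10 were higher and 4 lower in RIPC-EXO with a median log2 fold change of 0.30, against 197 of 404 higher and a median of -0.05 over all tested miRNAs. The list includes miR-126a-3p, which the study had already singled out from these libraries. Of these 14, 2 met the criterion of the study, both on the higher side. Over all tested miRNAs 9.41% met it in either direction and 1.98% (8 of 404) on the higher side. The 2 were miR-126a-3p, which supports vessel integrity, at 1.34, and miR-132-3p, linked to endothelial activation, at 1.54 from 1.41 to 10.8 CPM. Their adjusted p in edgeR was 0.46 each. The remaining 12 did not meet it, among them miR-21-5p at 1.04 and miR-221-3p at -0.79, examples chosen after their values were seen, as were those of the marker lists. Of the other lists, the 4 miRNAs of striated muscle had 2 higher and 2 lower with a median of -0.16, and miR-122-5p of liver had -0.65, and none of these met the criterion.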

How the data were processed

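The authors deposited 1 table of raw counts, reads per mature rat miRNA in each library, unscaled and unpooled. The submitters' notes list bcl2fastq, BWA and the build rn6; the miRNA database, mismatch rule and treatment of multiply matching reads are not given in the sources used here. Libraries were grouped by title and matched by column name. The treatment label reads untreated for all 6. The analysis of these counts used edgeR 4.0.16 under R 4.3.3: filterByExpr (minimum count 10, minimum total 15), TMM factors, and the quasi-likelihood test with group as the only term, Benjamini-Hochberg adjusted over 404 miRNAs. Standard errors came from the fold change and its F statistic. Ratios used a pseudocount of 0.5 and exact two-sided permutation tests over libraries, with ratios against 1 tested by sign flips. Binomial intervals and the floor of 3 counts cover counting error only, since no molecular identifiers are described. No 2 libraries agreed within sampling noise. The scripts were tested on simulated data. Alternatives were RLE, library size only, no filter, DESeq2 1.42.0, a minimum of 10 counts in all libraries, limma-voom (limma 3.58.1), TMM without the members, each library left out, another pseudocount and a replicate block. Members, lists and the rule for names (members, 5p arms of miR-23 and miR-27, and the 2 nearest profiles to each guide) were chosen with earlier results of these data known. Sequences and neighbouring genes came from RefSeq tables of GRCr8. Figures used Python 3.11.15 and matplotlib 3.10.9.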

Additional observations from a re-analysis of the deposited data

How the results depend on the processing

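With all 6 libraries kept, no alternative called a member, and leaving out 1 library gave 0 to 2 called members, both of them miR-27 guides without Control-EXO 3. Over all miRNAs the criterion of the study was met by 63 without a filter on low counts and by 15 to 182 with 1 library left out (15 without Control-EXO 1 or RIPC-EXO 3, 16 without RIPC-EXO 2, 18 without Control-EXO 2 and 182 without Control-EXO 3), and an adjusted p under 0.05 was reached by 0 to 132. The miR-23 and miR-27 guides stayed higher in RIPC-EXO and miR-24-2-5p lower in every fit. The log2 fold change of miR-24-3p turned positive with RLE (0.0015), library size only (0.089) and DESeq2 (0.0015), and ranged from -0.13 to 0.0094 with 1 library left out. That of miR-24-1-5p became 0.037, 0.10 and 0.037, and ranged from -0.22 to 0.18. Differences of log2 ratios that changed sign with 1 library left out ranged from -0.12 to 0.15 (miR-23a-3p over miR-23b-3p), -0.047 to 0.37 (miR-27a-3p over miR-27b-3p), -0.38 to 0.0086 (miR-24-2-5p over miR-24-1-5p), -0.14 to 0.12 (a over b guides) and -0.043 to 0.32 (miR-24-3p over its 5p arms), and the mean log2 ratio of miR-27a-3p over miR-24-2-5p from -0.23 to 0.50. The cause was not tested. With the replicate block 38 miRNAs were called, 25 higher and 13 lower in RIPC-EXO, of which 18 were shared with the unblocked fit, and 0 were members. Deviations from the group means correlated at 0.33, -0.28 and 0.28 between libraries of the same number, against a mean of -0.066 between libraries of other numbers. With 3 libraries per group these values cannot settle whether the numbers pair them.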
